A study of Mus musculus with 8 samples.

Results

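The 9 genes described here encode transcription factors that steer granulocyte and monocyte fate: the C/EBP family members Cebpa, Cebpb, Cebpd, Cebpe and Cebpg, and Spi1, Gfi1, Irf8 and Klf4. They were taken by gene symbol from a table of 55291 genes. All 9 were in the table, and all 9 were among the 17418 genes kept for testing. RNA sequencing had been done on leukaemic granulocyte-macrophage progenitors (L-GMP), taken from bone marrow by a sort for c-Kit, CD34 and CD16/32 on cells without Sca-1 or lineage markers. The labels also call these cells leukaemia stem cells. The 4 KO libraries came from AML mice of genotype Dekfl/fl with the transgene MX1-Cre. The 4 FL libraries came from AML mice of genotype Dekfl/fl alone. The comparison bears on what loss of Dek, which encodes a chromatin-bound protein, does to the transcripts of these cells. Both groups carried the leukaemia driver MLL-AF9, a fusion oncogene that holds a progenitor program active. MX1-Cre is driven by an interferon-responsive promoter and is used to delete floxed genes in blood cells. The KO group alone carried it, so its effect cannot be told apart from that of Dek loss. The sources used here give no age, strain background or inducing treatment.

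C/EBP proteins are basic leucine zipper factors that bind DNA as dimers, and they differ in when they act along the granulocyte lineage. C/EBPα opens the path to the granulocyte-macrophage progenitor, and C/EBPε drives the late steps of granule formation. PU.1, the product of Spi1, is an ETS-family factor needed for both the neutrophil and the monocyte branch. Irf8 and Klf4 act on the monocyte branch, whereas Gfi1 is a repressor that holds that branch down in favour of neutrophils.

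Dek, the targeted gene, was at 16.7 to 31.0 counts per 1000000 (CPM) in KO libraries and at 129 to 178 CPM in FL libraries. CPM here are per 1000000 counts of the tested genes after scaling by TMM, a method that sets the bulk of genes equal between libraries. Library totals were 33941940 to 49736592 counts in KO and 44086524 to 58660705 counts in FL. KO libraries held 30606 to 37801 genes with at least 1 count, and FL libraries held 24125 to 26053. FL replicate 4 stood apart from its group: its counts differed from the other FL libraries by a chi-square of 230 to 364 per degree of freedom, against 80.0 to 120 among the other FL pairs and 21.2 to 79.3 among KO pairs. Of the genes of the sort, Kit averaged 154 CPM in KO and 91.1 CPM in FL, and Cd34 averaged 461 CPM in KO and 710 CPM in FL. Fcgr3, a gene of the CD16/32 epitope, averaged 362 CPM in KO and 644 CPM in FL. Fcgr2b, the other gene of that epitope, was the median of the 5 sort genes, at a log2 fold change of -0.06. Ly6a, which encodes Sca-1, averaged 1.64 CPM in KO and 0.342 CPM in FL. Of 10 eosinophil genes, 8 were tested and 7 passed as higher in KO. Their summed level was 249 to 1309 CPM in KO and 21.8 to 114 CPM in FL, highest in KO replicates 2 and 3, and none was at 0 in every library. Summed erythroid genes stood at 4.68 to 36.5 CPM in KO and 2.51 to 5.13 CPM in FL. Mast cell and basophil genes summed to 41.9 to 83.7 CPM in KO and 132 to 270 CPM in FL. That gap lay mostly in Cpa3, at 5.03 CPM in KO and 132 CPM in FL. Of the 4 mast cell and basophil genes tested, Cpa3 passed as lower, Ms4a2 passed as higher, and Mcpt8 and Hdc did not pass. Summed megakaryocyte, B cell, T and NK cell, and stromal and endothelial genes overlapped between the groups, but single genes passed. Most of the last 3 sums came from Cd79b, Nkg7 and Pecam1. Of 3 tested megakaryocyte genes, 2 passed as higher and 1 as lower, against 13% and 14.9% of all genes. Of 3 B cell genes and of 3 stromal and endothelial genes, 1 passed each way. Of 4 T and NK cell genes, 2 passed as higher and none as lower. The part of other cells in the values of the 9 factors was not tested, and in bulk RNA fewer cells of a type and less RNA per cell cannot be told apart. Whether the libraries within a group stem from different mice is not stated in the labels. The p-values therefore reflect only library-to-library spread, possibly technical.

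Of the 9 factors, Spi1 alone passed the test between KO and FL, and it was lower in KO. That is 1 of 9, or 11.1%, whereas 27.9% of all tested genes passed, 13% as higher and 14.9% as lower in KO. Adjusted p-values come from the quasi-likelihood test of edgeR, corrected by Benjamini-Hochberg over the 17418 tested genes, with a threshold of 0.05. Only Spi1 and Klf4 had an unadjusted p under 0.05. On the TMM scale the KO and FL libraries overlapped for each of the 9 factors, whereas 30.9% of all tested genes had groups that did not overlap. Of the log2 fold changes, 4 were above 0 and 5 were below, with a median of -0.35 against 0.05 over all genes. For the other 8 factors the intervals of the fold change, given below, remained wide, so these data do not show that their levels were alike.

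**Figure D1:**
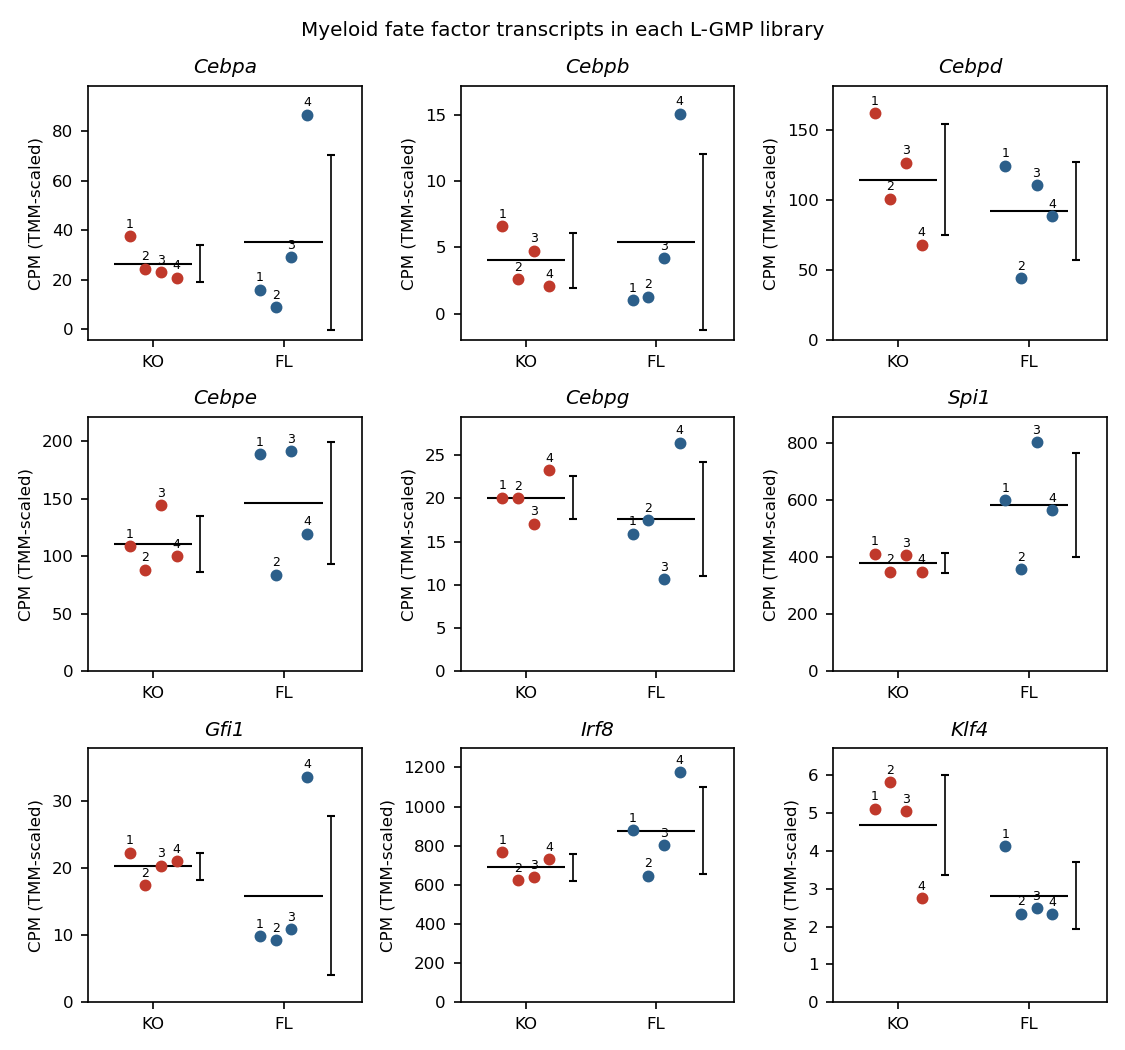
Level of each of the 9 factors in the KO libraries (red, left) and the FL libraries (blue, right), in CPM scaled by TMM on linear axes; numbers are replicate numbers, horizontal bars are group means and error bars are SD (n = 4 each). FL replicate 4 lies far above the other FL libraries for Cebpa (86.7 CPM), Cebpb (15.1 CPM) and Gfi1 (33.6 CPM), and the KO libraries of Spi1 lie between 348 and 411 CPM.

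Set in order of level per kilobase of exon, the factors formed a steep range in both groups. Spi1 was the highest at 140 CPM per kb in KO and 215 CPM per kb in FL, and Irf8 (97.8 in KO and 124 in FL) and Cebpe (89.0 in KO and 118 in FL) followed. These 3 stood between the 96th and the 98th percentile of the 12537 tested protein-coding genes in both groups, the lowest being Cebpe at 96.6 in KO and 96.1 in FL. Cebpd was at 30.6 CPM per kb in KO and 24.6 in FL, Cebpa at 10.04 in KO and 13.3 in FL, and Gfi1 at 6.37 in KO and 5.0 in FL. The lowest levels were those of Cebpg (3.57 in KO and 3.13 in FL), Cebpb (2.67 in KO and 3.60 in FL) and Klf4 (1.53 in KO and 0.924 in FL). Cebpg and Cebpb changed places between the groups, but their libraries overlapped in both. Among the 8 pairs of neighbours in each order, 3 overlapped in KO (Irf8 with Cebpe, Cebpg with Cebpb, and Cebpb with Klf4) and 6 overlapped in FL.

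Cebpa, the factor that commits progenitors to the granulocyte-macrophage path, lies on chromosome 7 (35119293 to 35121928, plus strand, mm10) and consists of 1 exon. It was at 37.5, 24.5, 23.0 and 20.8 CPM in KO libraries 1 to 4, against 16.0, 8.88, 29.0 and 86.7 CPM in FL libraries 1 to 4. The FL libraries thus spanned 9.76-fold, from the lowest to the highest value of the 8, and enclosed all 4 KO libraries, which spanned 1.80-fold. Its log2 fold change was -0.41 (SE 0.55, 95% interval -1.62 to 0.80, adjusted p = 0.614). Without FL replicate 4 the fold change was 0.53, of the opposite sign, and did not pass either.

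Cebpb, which supports granulocyte output under emergency demand, showed the same FL library far above the rest. The gene lies on chromosome 2 (167688915 to 167690418, plus strand). It was at 6.61, 2.62, 4.76 and 2.09 CPM in KO libraries 1 to 4, against 1.04, 1.29, 4.22 and 15.1 CPM in FL libraries 1 to 4. The KO values lay within the FL range of 14.5-fold. Its log2 fold change was -0.43 (SE 0.73, 95% interval -2.04 to 1.18, adjusted p = 0.697), and without FL replicate 4 it was 0.85.

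Cebpa and Cebpb were among the 5 factors highest within FL in replicate 4, and the 250 bases before their transcription starts are shown. Both come from RefSeq on GRCm38.p6, run 5′ to 3′ on the plus strand, and carry in capitals the single copy found in each window of a 5-base C/EBP core, ATTGC or TTGCG on either strand.
Cebpa, chr7:35119043-35119292: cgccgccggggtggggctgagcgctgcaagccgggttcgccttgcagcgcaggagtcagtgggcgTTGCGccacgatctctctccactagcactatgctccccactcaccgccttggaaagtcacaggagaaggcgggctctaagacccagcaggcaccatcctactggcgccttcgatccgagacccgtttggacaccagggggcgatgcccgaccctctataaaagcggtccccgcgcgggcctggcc
Cebpb, chr2:167688665-167688914: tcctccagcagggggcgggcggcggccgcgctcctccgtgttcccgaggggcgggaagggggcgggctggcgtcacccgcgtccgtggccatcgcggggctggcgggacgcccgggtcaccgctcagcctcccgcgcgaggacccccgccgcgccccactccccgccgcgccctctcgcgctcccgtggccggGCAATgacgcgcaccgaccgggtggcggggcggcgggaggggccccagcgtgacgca
The Cebpa window holds TTGCG at position -185 from the start, and the Cebpb window holds GCAAT, the reverse complement of ATTGC, at position -57. Either core occurs in 33.5% of the 32851 mouse promoter windows of that length, ATTGC in 23.1% and TTGCG in 14.5%, and ATTGCG would count for both. The 8 windows at hand covered 6 of the 9 factors (Cebpa, Cebpb, Cebpg, Gfi1, Irf8 and Klf4), with 2 starts each for Gfi1 and Irf8. The windows of the other 4 factors held neither core. Among them were Cebpg, Gfi1 and Irf8, which were also highest within FL in replicate 4. Any link of the cores to that peak was not tested. With 50 bases after the start added, none of the 8 windows held the longer motifs TTGCGCAA or TTGCNNCAA of C/EBP, GAGGAAGT of PU.1 or TGANTCA of AP-1, nor the ETS-IRF composite element, the interferon-stimulated response element core or the Gfi1 core, each searched on both strands and present in 0.183% to 7.81% of promoters. The cores were searched after the longer motifs had given no match.

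Cebpe, the C/EBP of late granulocyte maturation, was the highest of the family per kilobase. It lies on chromosome 14 (54710360 to 54712174, minus strand). Its level was 109, 88.3, 145 and 99.96 CPM in KO libraries 1 to 4, against 189, 84.2, 192 and 120 CPM in FL libraries 1 to 4. FL replicate 2 was the lowest of all 8 libraries, and FL replicates 1 and 3 were the highest. The log2 fold change was -0.40 (SE 0.25, 95% interval -0.95 to 0.15, adjusted p = 0.256).

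Cebpd, an inflammation-responsive member of the family on chromosome 16 (15887286 to 15891031, plus strand), was at 162, 101, 127 and 68.3 CPM in KO libraries 1 to 4. In FL libraries 1 to 4 it was at 125, 44.6, 111 and 88.5 CPM. The groups overlapped through most of their range, and the log2 fold change was 0.31 (SE 0.31, 95% interval -0.37 to 1.0, adjusted p = 0.485). It was 0.09 without KO replicate 1 and 0.08 without FL replicate 2. Of its exonic bases, 562 overlap Spidr on the opposite strand, a gene at 57.3 CPM in KO and 50.1 CPM in FL. Unstranded counting could not tell apart the reads from those bases.

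Cebpg, a broadly expressed C/EBP without a strong activation domain that pairs with other basic leucine zipper factors, lies near Cebpa on chromosome 7 (35046422 to 35056573, minus strand). It was at 20.1, 20.02, 17.1 and 23.2 CPM in KO libraries 1 to 4, against 15.9, 17.4, 10.7 and 26.4 CPM in FL libraries 1 to 4. Here too FL replicate 4 was the highest of the 8, and the KO libraries stood inside the FL range. The log2 fold change was 0.19 (SE 0.23, 95% interval -0.32 to 0.71, adjusted p = 0.578). Scaled to library totals its groups no longer overlapped, at 20.7 to 28.8 CPM in KO and 8.45 to 18.02 CPM in FL. Under that scaling 51.7% of all genes passed as higher in KO. The share of all genes without overlap was not computed for it, so the separation cannot be read as particular to Cebpg.

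Spi1 fell in KO. The gene lies on chromosome 2 (91082390 to 91115756, plus strand). It was at 411, 348, 405 and 348 CPM in KO libraries 1 to 4, against 599, 356, 800.5 and 564 CPM in FL libraries 1 to 4. The KO libraries lay within a narrow band and the single FL library inside it was replicate 2. Means were 378 ± 34.7 CPM in KO and 580 ± 182 CPM in FL (SD, n = 4 each), a log2 fold change of -0.62 (SE 0.20, 95% interval -1.07 to -0.17, adjusted p = 0.0438), or 1.53-fold lower. With 1 library left out at a time the change stayed between -0.79 and -0.44 on the log2 scale, but it passed in 1 of the 8 fits, the one without FL replicate 2 (adjusted p = 0.00424), with adjusted p of 0.0553 to 0.115 in the other 7. Scaled to library totals in place of TMM, the change was -0.01 (95% interval -0.41 to 0.38, adjusted p = 0.956).

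Irf8, which turns progenitors toward monocytes and dendritic cells, stood next to Spi1 in level per kilobase. The gene lies on chromosome 8 (120736358 to 120756694, plus strand). Its level was 768, 624, 638 and 730 CPM in KO libraries 1 to 4, against 881, 647, 803.5 and 1175 CPM in FL libraries 1 to 4. Only FL replicate 2 lay within the KO range. The log2 fold change was -0.35 (SE 0.17, 95% interval -0.73 to 0.03, adjusted p = 0.162). It passed in 1 of the 8 fits with a library left out, that without FL replicate 2 (-0.47, adjusted p = 0.0489). Without FL replicate 4 the change was -0.19 (adjusted p = 0.337).

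Klf4, a zinc finger factor that promotes monocyte differentiation, was the lowest of the 9 per kilobase. It lies on chromosome 4 (55527143 to 55532466, minus strand). It was at 5.11, 5.81, 5.05 and 2.76 CPM in KO libraries 1 to 4, against 4.13, 2.34, 2.48 and 2.33 CPM in FL libraries 1 to 4. KO replicate 4 and FL replicate 1 were the libraries that made the groups overlap. Means were 4.68 ± 1.33 CPM in KO and 2.82 ± 0.876 CPM in FL (SD, n = 4 each). At 0.73 its log2 fold change was the largest of the 9 in size (SE 0.29, 95% interval 0.10 to 1.36), and its adjusted p of 0.0825 missed the threshold. It passed without KO replicate 4 (0.90, adjusted p = 0.0277), without FL replicate 1 (0.96, adjusted p = 0.0327) and, with all libraries, in DESeq2 (0.73, adjusted p = 0.0436).

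Gfi1, the repressor that favours neutrophils over monocytes, lies on chromosome 5 (107716657 to 107726036, minus strand). It was at 22.3, 17.5, 20.4 and 21.0 CPM in KO libraries 1 to 4, against 9.92, 9.28, 10.9 and 33.6 CPM in FL libraries 1 to 4. All 4 KO libraries lay above FL replicates 1 to 3 and below FL replicate 4. With all 8 libraries the log2 fold change was 0.35 (SE 0.37, 95% interval -0.46 to 1.16, adjusted p = 0.515). Without FL replicate 4 it was 0.999 (SE 0.14, adjusted p = 9.79e-04). Under TMM that library therefore decides whether the change in Gfi1 passes.

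**Figure D2:**
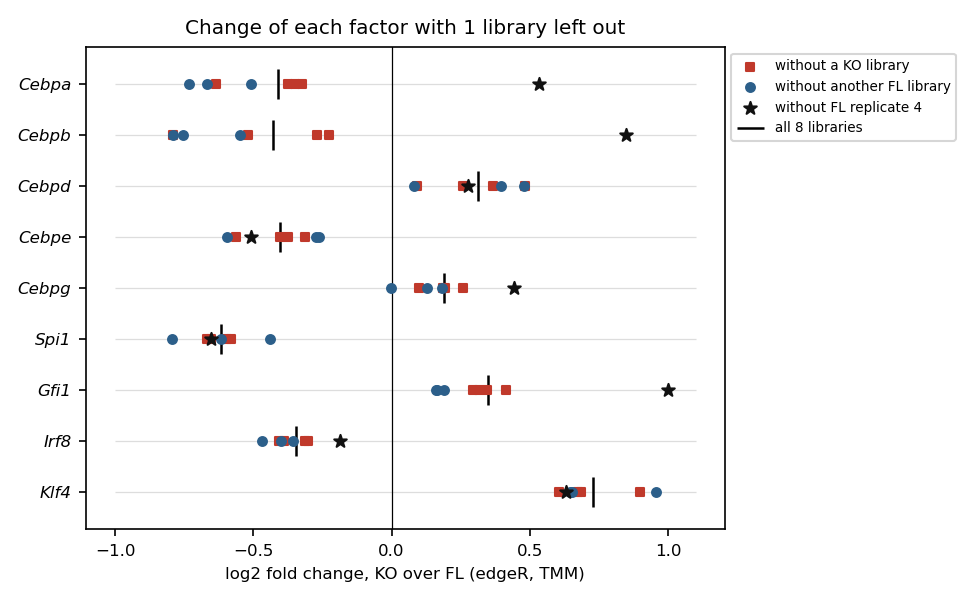
Log2 fold change of each factor, KO over FL, from edgeR with TMM scaling, with 1 library left out at a time: squares without a KO library, circles without FL replicate 1, 2 or 3, stars without FL replicate 4, and vertical ticks for all 8 libraries. The stars of Cebpa (0.53) and Cebpb (0.85) lie across 0 from their ticks, and that of Gfi1 lies at 0.999, whereas every mark of Spi1 lies between -0.79 and -0.44.

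The factors varied more among FL libraries than among KO libraries. On the log2 scale the SD was larger in FL for 8 of the 9, Klf4 being the exception, whereas it was larger in FL for 65.9% of 10222 genes with a mean of 5 CPM or more in a group. For Gfi1 the SD was 0.143 in KO and 0.831 in FL, for Cebpa 0.362 in KO and 1.35 in FL, and for Cebpb 0.599 in KO and 1.37 in FL. The medians over the 10222 genes were 0.160 in KO and 0.214 in FL, and 98.1% to 99.8% of these genes had a smaller FL spread than those 3 factors. FL replicate 4 was the highest FL library for Cebpa, Cebpb, Cebpg, Gfi1 and Irf8, 5 of the 9, against 29.6% of the tested genes. As coefficients of variation, Spi1, Gfi1 and Irf8 were at 9.18%, 10.1% and 10.2% in KO, and at 31.4%, 74.2% and 25.3% in FL.

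The choice of scaling sets the sign of several of these changes. Per library total, the median log2 fold change over all genes was 0.64, against 0.05 under TMM, and 51.7% of genes passed as higher and 5.09% as lower in KO. The median of the 9 factors was then 0.31, still below that of all genes. Cebpd (0.91, adjusted p = 0.0155), Cebpg (0.81, adjusted p = 0.00745), Gfi1 (1.03, adjusted p = 0.00901) and Klf4 (1.30, adjusted p = 0.00365) passed as higher, 4 of 9 against a background of 51.7%, or of 56.8% in either direction, and none passed as lower. Spi1 stood lowest of the 9 and Klf4 highest under both scalings. A change of scaling moves each gene by a similar amount. Neither this order nor the place of the median of the 9 below that of all genes is therefore a separate result under library totals.

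**Figure D3:**
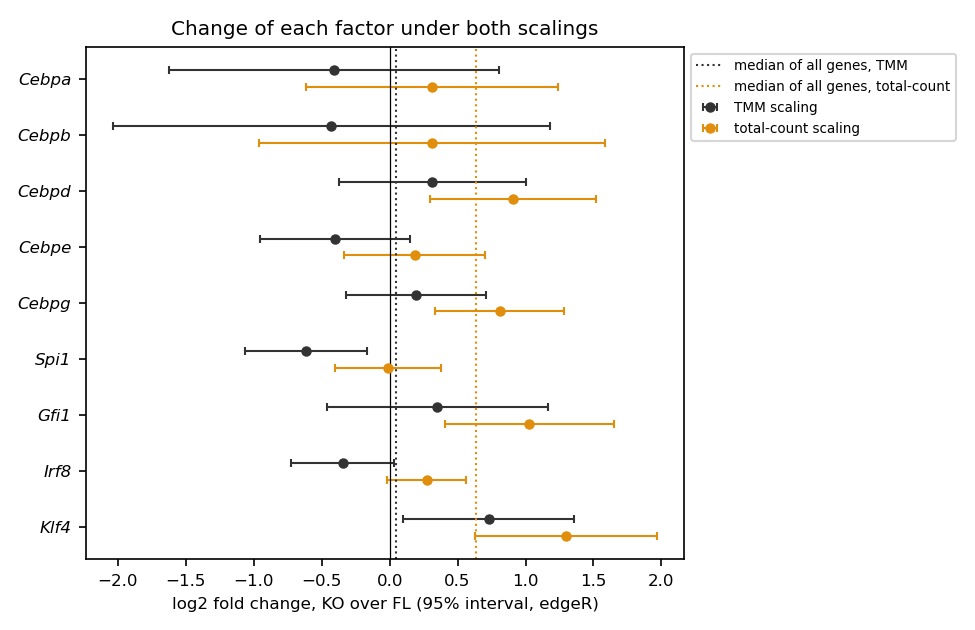
Log2 fold change of each factor, KO over FL, with its 95% interval from edgeR under TMM scaling (dark) and under scaling to library totals (orange); dotted lines mark the median of all tested genes under each scaling, 0.05 and 0.64. Spi1 has the TMM interval that lies wholly below 0 and Klf4 the one wholly above it, and each factor moves up under total-count scaling.

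Ratios of counts within a library need no scaling factor, and 6 were compared by a two-sided exact permutation test, adjusted over the 6. The smallest p that 4 against 4 libraries allow is 0.0286. Gfi1 over Irf8, the neutrophil-favouring repressor against the monocyte factor, was 0.0290, 0.0280, 0.0320 and 0.0288 in KO libraries 1 to 4. In FL libraries 1 to 4 it was 0.0113, 0.0144, 0.0136 and 0.0286. The KO ratios sat close together, at -5.09 ± 0.083 on the log2 scale against -5.98 ± 0.589 in FL (SD, n = 4 each), and FL replicate 4 reached them. The difference of 0.89 had an exact permutation p of 0.0571 (0.343 adjusted) and did not pass. After adjustment over the 6, however, a single ratio could not have passed even at the smallest p of 0.0286. The adjusted test therefore cannot decide whether any single ratio differed between the groups.

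Cebpa over Spi1, the pair whose balance bears on the granulocyte and monocyte choice, was 0.0913, 0.0704, 0.0567 and 0.0597 in KO libraries 1 to 4. In FL libraries 1 to 4 it was 0.0267, 0.0250, 0.0362 and 0.154. All 4 KO ratios exceeded those of FL replicates 1 to 3 and fell short of that of FL replicate 4, and the difference was 0.64 on the log2 scale (exact permutation p = 0.371, 0.971 adjusted). Without FL replicate 4 it was 1.24 (exact permutation p = 0.0286, 0.0857 adjusted). That is the smallest p that 4 against 3 libraries allow. Leaving out the only FL library above the KO ratios sets the groups apart, so this p adds no support. Without FL replicate 1 or 2 the difference was 0.40 or 0.37. Cebpe over Irf8 differed by -0.03, Cebpe over Cebpa by -0.42, Cebpb over Cebpa by 0.17 and Cebpd over Cebpa by 0.27, with exact permutation p-values of 0.657 or more and 0.971 for each after adjustment. Without FL replicate 4 Cebpe over Cebpa differed by -1.10 (exact permutation p = 0.0571, 0.114 adjusted).

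**Figure D4:**
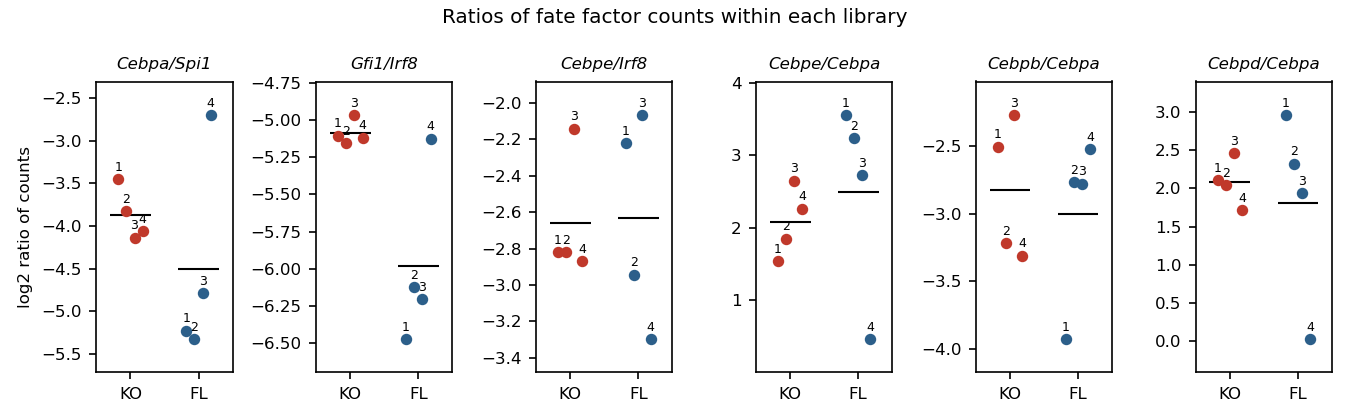
Log2 ratio of the counts of 2 factors within each library, KO (red, left) and FL (blue, right), with replicate numbers and group means as horizontal bars. For Gfi1/Irf8 the KO libraries lie together at -5.09 ± 0.083 with FL replicate 4 beside them and the other FL libraries below, and for Cebpa/Spi1 the KO libraries lie between FL replicate 4 and the other FL libraries.

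Across 9 lists of targets, partners and lineage genes of the factors, 19 of 125 tested genes rose (15.2%, against 13% of all genes) and 31 fell (24.8%, against 14.9% of all genes). Of the 14 genes listed here as targets of PU.1, all tested, 11 fell and none rose, and the median log2 fold change was -0.75. The list does not hold every known target. Csf1r, also a PU.1 target but counted below among the monocyte genes, rose (0.73, adjusted p = 0.00833). Coro1a, an actin regulator of leukocytes, averaged 1083 ± 75.8 CPM in KO and 3037 ± 275 CPM in FL (log2 fold change -1.49, SE 0.12, adjusted p = 4.06e-05). Fcer1g, the Fc receptor signalling chain, fell by 1.54 on the log2 scale (adjusted p = 2.95e-04) and Ptpn6, the phosphatase SHP-1, fell by 0.96 (adjusted p = 3.51e-04). The count of falls was 6 with scaling to library totals, where 2 rose, against 5.09% and 51.7% of all genes. With 1 library left out the count of falls was 6 to 11, lowest without KO replicate 1 or 2. It was 6 without KO replicates 2 and 3, and 0 with the number of detected genes as a covariate, a number whose ranges did not overlap between the groups.

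Of 15 tested monocyte and macrophage genes, 8 fell and 2 rose, against 14.9% and 13% of all genes, with a median of -0.65. Ly6c2, the surface antigen Ly6C, averaged 1504 CPM in KO and 3843 CPM in FL (-1.35, adjusted p = 0.00178). The lysosomal glycoprotein gene Cd68 changed by -0.97 (adjusted p = 0.00125) and Ly86, which encodes the MD-1 partner of a Toll-like receptor homologue, by -0.68 (adjusted p = 0.00231). Csf1r, the receptor for the monocyte growth factor M-CSF, went the other way, at 222 CPM in KO and 133 CPM in FL (0.73, adjusted p = 0.00833), as did the chemokine receptor gene Cx3cr1 (0.90, adjusted p = 0.0466), whose call was lost in 7 of the alternative settings. These last 2 were named after their values were seen. Per library total 3 fell and 3 rose, against 5.09% and 51.7% of all genes, with a median of -0.05 against 0.64 over all genes. Without KO replicates 2 and 3 there were 3 falls and 1 rise. Rises numbered 1 without KO replicate 2, 3 or 4 or FL replicate 3.

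Of 12 primary granule and early granulocyte genes, 3 fell and 1 rose, against 14.9% and 13% of all genes, with a median of -0.08. Per library total 6 rose and 2 fell, against 51.7% and 5.09% of all genes, with a median of 0.53. Leaving out FL replicate 2 gave 5 falls and leaving out KO replicate 2 gave 2, and rises numbered 2 without KO replicate 1 or FL replicate 1. Csf3r, the G-CSF receptor and a known C/EBPα target, was at 169, 170, 134 and 169 CPM in KO libraries 1 to 4, against 79.9, 81.3, 52.7 and 66.5 CPM in FL libraries 1 to 4. The groups were fully apart, with a log2 fold change of 1.196 (SE 0.15, adjusted p = 3.37e-04). Srgn, the granule proteoglycan serglycin, changed by -1.10 (adjusted p = 0.00123) and the granule protease gene Ctsg by -0.83 (adjusted p = 0.0033). Named after their values were seen, the granule enzyme genes Mpo (12204 CPM in KO and 11537 CPM in FL, 0.08, adjusted p = 0.849) and Elane (9710 CPM in KO and 8480 CPM in FL, 0.20, adjusted p = 0.519) did not pass.

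Of 14 secondary granule and late neutrophil genes, which C/EBPε is known to drive, 3 rose and 1 fell. The shares over all genes were 13% and 14.9%. Retnlg, a resistin-like gene of neutrophils, averaged 7.30 CPM in KO and 0.551 CPM in FL (3.72, adjusted p = 3.42e-04), and Lrg1, a secreted glycoprotein gene, averaged 21.3 CPM in KO and 2.59 CPM in FL (3.03, adjusted p = 6.6e-04). Mmp8, neutrophil collagenase, averaged 5.09 CPM in KO and 18.2 CPM in FL (-1.84, adjusted p = 0.00332). The median of the list was 0.87 with all libraries, 0.04 without KO replicates 2 and 3, the libraries highest in eosinophil genes, and 0.13 without KO replicate 3 alone. Rises numbered 5 without KO replicate 1 and 2 without KO replicate 3 or FL replicate 3. Per library total 7 of the 14 rose and 1 fell, near the 51.7% and 5.09% of all genes.

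Of 14 tested basic leucine zipper partners and Tribbles regulators of C/EBP, 2 rose and 2 fell, near the shares over all genes of 13% and 14.9%. No rise was left without KO replicate 1, KO replicate 2 or FL replicate 3, and 1 was left without any other library. Falls numbered 1 without KO replicate 2, 3 or 4 or FL replicate 1 or 3. Atf4, a stress factor that can pair with C/EBP proteins, averaged 215 CPM in KO and 336 CPM in FL (-0.64, SE 0.14, adjusted p = 0.0054). Trib1, a pseudokinase that promotes degradation of C/EBPα protein, averaged 44.4 CPM in KO and 22.05 CPM in FL (1.01, SE 0.32, adjusted p = 0.0351). Dbp, a factor of the related PAR family, rose by 0.67 (adjusted p = 0.0481). Per library total, Atf4 was at -0.04 and did not pass, and 8 of the 14 rose, against 51.7% of all genes. Trib1 lost its call in 8 and Dbp in 10 of the alternative settings tried.

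Of 23 tested paralogs, corepressors and opposing fate factors, 4 rose and 2 fell, against 13% and 14.9% of all genes. Spib, the paralog of Spi1 best known from B cells and plasmacytoid dendritic cells, averaged 0.974 CPM in KO and 0.179 CPM in FL (2.42, adjusted p = 0.00351). With no count filter, which adds low-count genes, the median log2 fold change over 46035 genes was 0.90, against 0.05 with the filter. Rises at averages under 1 CPM, here and for Zbtb46 and Il10 below, are to be read against that. Kdm1a, the demethylase LSD1 that Gfi1 recruits, averaged 14.5 CPM in KO and 9.61 CPM in FL (0.60, adjusted p = 0.0152). Gfi1b, the paralog of Gfi1, was at 1.46 CPM in KO and 2.35 CPM in FL and did not pass (adjusted p = 0.32). Per library total 15 of the 23 rose and 1 fell, against 51.7% and 5.09% of all genes. With 1 library left out 2 to 5 rose, with 2 after leaving out KO replicate 1 or 2 or FL replicate 1 or 3, and 1 to 2 fell, with 1 after leaving out KO replicate 1, 2 or 4 or FL replicate 1 or 2.

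Of 11 tested dendritic cell and antigen presentation genes, 1 rose and 2 fell, against 13% and 14.9% of all genes. Per library total 5 rose and 2 fell, against 51.7% and 5.09% of all genes. Without KO replicates 2 and 3 none passed, without FL replicate 4 there were 4 rises, without KO replicate 3 there were 2, and without FL replicate 3 there was 1 fall. The MHC class II gene H2-Ab1 averaged 2.69 CPM in KO and 10.8 CPM in FL (-1.998, adjusted p = 0.00811), and Flt3, the receptor of early dendritic and multipotent progenitors, averaged 54.4 CPM in KO and 199.5 CPM in FL (-1.87, adjusted p = 0.016). Zbtb46, a factor of classical dendritic cells, averaged 0.668 CPM in KO and 0.178 CPM in FL (1.88, adjusted p = 0.0138).

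Of 12 tested inflammatory and acute phase genes, many of them known C/EBPβ and C/EBPδ targets, 5 rose and none fell, against 13% of all genes that rose. Per library total 8 rose and none fell, against 51.7% and 5.09% of all genes. There were 3 rises with a block for the replicate number and 0 with the number of detected genes as a covariate. Rises numbered 2 without KO replicate 1, KO replicate 2 or FL replicate 4, where 1 gene fell without that FL library, and 1 without KO replicates 2 and 3. Ptgs2, the inducible cyclooxygenase, averaged 12.6 CPM in KO and 1.96 CPM in FL (2.68, adjusted p = 5.09e-04). Il10 averaged 0.568 CPM in KO and 0.0483 CPM in FL, with no count in FL replicates 2 and 4 (adjusted p = 0.0131). Stat3, the factor downstream of the G-CSF and IL-6 receptors, rose by 0.34 (adjusted p = 0.0329). It lost its call in 11 of the alternative settings.

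Of 10 amino acid stress response genes, the program that Atf4 drives with C/EBP partners, 2 fell and 1 rose. The shares over all genes were 14.9% and 13%. With 1 library left out 1 to 2 fell, with 1 after leaving out KO replicate 2, 3 or 4 or FL replicate 1 or 3, and the rise was lost without KO replicate 1, 2 or 3 or FL replicate 1 or 4. Psat1, an enzyme of serine synthesis, averaged 82.0 CPM in KO and 249.5 CPM in FL (-1.61, adjusted p = 3.45e-04), and Slc3a2, the heavy chain of amino acid transporters, fell by 0.59 (adjusted p = 0.0398). Chac1, a glutathione-degrading enzyme, averaged 1.30 CPM in KO and 0.462 CPM in FL (1.49, adjusted p = 0.0415). Slc3a2 lost its call in 9 and Chac1 in 8 of the alternative settings. With the number of detected genes as a covariate, Psat1 was the only list gene named here that still passed.

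**Figure D5:**
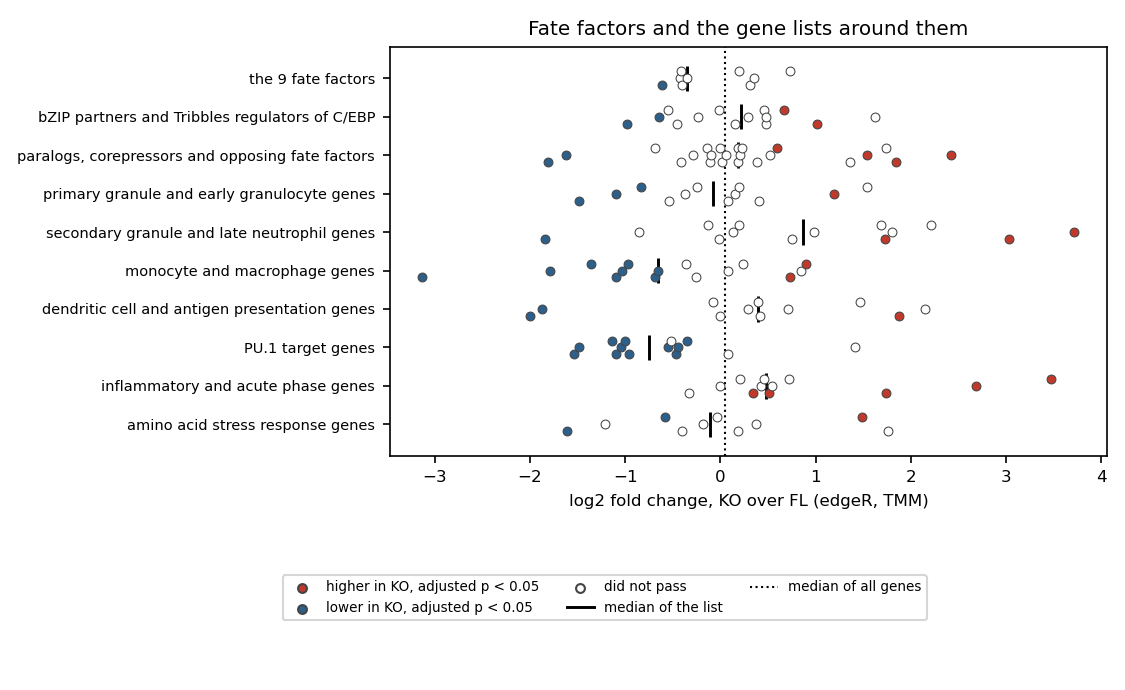
Log2 fold change, KO over FL, of the 9 factors and of each tested gene of the 9 lists around them, from edgeR with TMM scaling; red and blue points passed the test as higher and lower in KO, open points did not, thick bars are list medians and the dotted line is the median of all genes, 0.05. The genes listed as PU.1 targets, which leave out Csf1r, have 11 blue and no red points with a median of -0.75, and inflammatory genes have 5 red and no blue points.

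For each factor, the genes with the most similar pattern over the 8 libraries were sought among 9195 genes by the root mean square distance between centred log2 levels, a description with no test. The closest match of all was to Cebpg, by Ern1 at a distance of 0.0737 and Irf2 at 0.0789. Next came Spi1, with Rbfa at 0.0912 and Os9 at 0.105, and Irf8, with Zbtb14 at 0.0963 and Ubqln4 at 0.118. Gfi1 was nearest to Mtmr1 at 0.145, Cebpd to Clasrp at 0.161, Cebpe to Mfsd13a at 0.175 and Klf4 to Ppp1r15a at 0.192. Cebpa, with its peak in FL replicate 4, was nearest to Macrod1 at 0.180, and no gene of the pool came closer to Cebpb than Hnrnpab at 0.346.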

How the data were processed

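Total RNA was extracted from sorted L-GMP with a miRNeasy kit, amplified by the Geo-seq method and made into libraries with a transposase kit, per the labels' protocols. Since molecular identifiers are not mentioned, PCR copies are counted. For the 8 libraries, 4 KO and 4 FL, the authors deposited raw counts of reads by gene symbol, with the FL columns headed WT. Build mm10, DESeq2, HTSeq 0.13.5 and Bowtie 0.12.9 appear in the submitters' processing notes, while the deposited sheet's name gives featureCounts, so the counting tool is unresolved. The sources used here give no annotation, strand setting or treatment of multiply matching reads. Cebpb, Cebpd, Gfi1 and Cebpa share 312, 562, 101 and 51 exonic bases with genes on the opposite strand (GENCODE M21, mm10). Unstranded counting could not tell apart the reads from those bases, and whether they were dropped or counted is not known.

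KO was compared with FL in edgeR 4.0.16 (R 4.3.3): TMM factors (1.20 to 1.26 in KO and 0.682 to 0.912 in FL), the filterByExpr gene filter, quasi-likelihood F tests without covariates, and Benjamini-Hochberg adjustment over all 17418 kept genes at 0.05. Standard errors are the log2 fold change over the square root of F. No copies were found among the libraries, as every pair within a group differed by a chi-square of at least 21.2 per degree of freedom (genes with 20 or more counts). Ratios used counts plus 0.5. Alternatives were total-count scaling, RLE and upper-quartile factors, DESeq2 1.42.0, limma-voom 3.58.1 with quality weights, no count filter, a minimum of 5 CPM in 4 libraries, a block for the replicate number, detected genes as a covariate, no KO replicates 2 and 3, and each library left out in turn. The edgeR, DESeq2 and voom steps were tested on simulated data. Text names the 9 factors, Dek, the nearest genes by pattern, up to 3 genes of each list with the smallest p, and genes a result turns on; 1 gene that this rule names is not reported here. The members and lists were chosen with earlier results of these data known.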

Additional observations from a re-analysis of the deposited data

Results flagged for a closer look

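Among 30 groups of 4 libraries that were looked at, 3 had 1 library far from the others, where chance gives about 1 in 20. Gfi1 was at 33.6 CPM in FL replicate 4, the gap to the next FL library being 0.934 of the range of the group. Klf4 was at 4.13 CPM in FL replicate 1, with a gap of 0.914 of the range. The log2 ratio of Cebpe to Irf8 was -2.14 in KO replicate 3, with a gap of 0.931 of the range. FL replicate 4 was far above its group in the same sense for 2.40% of the 17418 tested genes.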

How the results depend on the processing

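The count of factors that passed as higher in KO, 0 with all libraries and TMM, was 4 with total-count scaling, 1 with DESeq2 and 0 to 1 with 1 library left out. The count that passed as lower, 1, was 2 with no count filter (Spi1 and Cebpe), 0 to 2 with 1 library left out, and 0 with total-count scaling, limma-voom, 5 CPM in 4 libraries, the detected-genes covariate or no KO replicates 2 and 3. Spi1 kept its sign in all 18 alternatives and its call in 6 of them (RLE and upper-quartile factors, DESeq2, no filter, the block, no FL replicate 2). The sign of the fold change turned for Cebpa with total-count scaling (0.31), limma-voom (0.45), the covariate (0.27) and, over fits without 1 library (-0.73 to 0.53), no FL replicate 4, for Cebpb with total-count scaling (0.31), limma-voom (0.67) and no FL replicate 4 (-0.79 to 0.85 over fits without 1 library), for Cebpe with total-count scaling (0.18), for Irf8 with total-count scaling (0.27) and the covariate (0.12), and for Cebpg without FL replicate 3 (-0.0032 to 0.44 over fits without 1 library). The causes were not tested.

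With 1 library left out, the log2 ratio differences ran from -0.25 to 0.16 for Cebpe/Irf8, from -0.14 to 0.33 for Cebpb/Cebpa, from -0.32 to 0.65 for Cebpd/Cebpa, from 0.37 to 1.24 for Cebpa/Spi1, from -1.10 to -0.07 for Cebpe/Cebpa and from 0.73 to 1.18 for Gfi1/Irf8. Over all genes, the 2256 higher became 9012 with total-count scaling, 3647 with no filter, 1368 with 5 CPM in 4 libraries, 107 with the covariate, 1000 without KO replicates 2 and 3, and 1459 to 2443 with 1 library left out. The 2597 lower became 886 with total-count scaling, 98 with the covariate, 1342 without KO replicates 2 and 3, and 1938 to 2590 with 1 library left out. Over the 9 lists, the 19 higher became 58 with total-count scaling, 11 with 5 CPM in 4 libraries, 0 with the covariate, 6 without KO replicates 2 and 3, and 10 to 17 with 1 library left out. The 31 lower became 16 with total-count scaling, 1 with the covariate, 15 without KO replicates 2 and 3, and 21 to 30 with 1 library left out. Cebpb and Klf4 were not tested under the 5 CPM filter.

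Deviations of same-numbered libraries correlated at 0.0192 to 0.0474, and those of differently numbered ones at -0.157 to 0.0716. Such low correlations gave no sign that the replicate numbers pair the libraries, but they cannot exclude a pairing. With the replicate block the fold changes of Cebpa and Cebpb were 0.11 and 0.31, Spi1 alone passed (-0.56), and 24.9% of all genes passed. PCR copies count as reads, so depth bounds no error here.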
